A study of Mus musculus with 19 samples.

Results

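Gcnt2 and 3 other genes of lactosamine synthesis, B3gnt2, B4galt1 and Fut1, were followed through 18 mRNA-seq libraries of mouse vomeronasal organs (VNOs). These 4 genes, of 35596 with a transcript in the data, were chosen by name. Gcnt2 was selected on its higher level in the Smad4 conditional knockouts (cKO) of both mouse lines, so its cKO differences are given here as descriptions with no test. The other 3 genes were included for their place in the same glycan pathway. All 4 had enough counts to enter every comparison.

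Lactosamine is a repeat of galactose and N-acetylglucosamine that extends the glycans of glycoproteins and glycolipids. B3gnt2 adds the N-acetylglucosamine of each repeat and B4galt1 the galactose, which together build a linear chain. Gcnt2 is the I-branching enzyme: it adds an N-acetylglucosamine side arm to an inner galactose, and so turns the linear (i) chain into the branched (I) chain. Fut1 is a fucosyltransferase that caps a terminal galactose to make the H antigen. In the main olfactory system, lactosamine on sensory axons depends on B3gnt2 and on the cAMP-producing enzyme Adcy3, and it takes part in axon targeting to the olfactory bulb.

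All mice were females at postnatal day 21, and RNA came from the whole dissected organ. In the AP-2εCre line, Cre is knocked in at Tfap2e and acts in immature basal vomeronasal sensory neurons (VSNs). In the OMPCre line, Cre is knocked in at Omp and acts in mature apical and basal VSNs. Each line has 3 cKO libraries (Cre+/-/Smad4flox/flox), 3 libraries of Cre+/- heterozygotes (het) and 3 that the sample labels call wild type. The study's methods and its account of this data set name them as Smad4flox/flox mice without Cre, apart from a passage that says wild type, and they are called flox here. Each cKO group was set against the 6 controls of its line together. A further AP-2εCre library (the library with conflicting labels), titled as heterozygote 4 and carrying a genotype label with Smad4 flox, was put in no group.

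The libraries held 43385516 to 134042284 estimated counts in all, the most in AP-2εCre cKO 2. Levels are given as counts per 1000000 (CPM) after TMM normalization, a scaling by library size and composition. TPM, which also divides by transcript length, is used to compare one gene with another. Smad4 was at 54.2 to 62.5 CPM in the OMPCre cKO libraries, below the 65.1 to 83.9 CPM of their controls. In the AP-2εCre line its 33.8 to 66.8 CPM in cKO overlapped the 39.8 to 80.6 CPM of controls. The labels name vomeronasal neurons as the cell type, but the summed level of 6 gland and respiratory epithelium markers was 5500 to 11100 CPM across the cKO and control libraries, above the 1000 to 1540 CPM of 6 markers of mature VSNs (Omp, Trpc2, Gnao1, Gnai2, Meis2 and Tfap2e). In such bulk RNA, fewer cells of a type and less RNA per cell cannot be told apart.

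Gcnt2 (ENSMUSG00000021360.16) lies on the plus strand of chr13:40859754-40960892 (GRCm38) and has 3 alternative first coding exons. Gcnt2-203 starts at the start of the gene, Gcnt2-202 at base 40887193 and Gcnt2-201 at base 40917601. Each first exon carries 919 of the 1203 coding bases, stop codon not counted. The other 284 coding bases are in exons 2 and 3, which all 3 transcripts share. The first 60 coding bases of each first exon, from the GENCODE transcripts, are printed because they show how far the 3 forms differ at the end that tells them apart. Capitals mark the 47 positions that are not the same in all 3.
Gcnt2-203 (chr13:40860355-40860414, plus strand): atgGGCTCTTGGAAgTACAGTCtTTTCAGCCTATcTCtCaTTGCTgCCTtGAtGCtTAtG
Gcnt2-202 (chr13:40887367-40887426, plus strand): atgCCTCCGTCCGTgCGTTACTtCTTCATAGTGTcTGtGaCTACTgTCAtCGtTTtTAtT
Gcnt2-201 (chr13:40917883-40917942, plus strand): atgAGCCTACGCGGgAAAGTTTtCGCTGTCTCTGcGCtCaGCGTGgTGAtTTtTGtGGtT
Aligned base by base with no gaps over the 919 bases, Gcnt2-202 was identical to Gcnt2-203 at 65.3% of positions and to Gcnt2-201 at 63%, and Gcnt2-201 to Gcnt2-203 at 67.9%. The longest identical run in any pair was 47 bases, so no window of 75 bases, the read length, is shared between first coding exons at the same or any other position. Reads from exons 2 and 3 do not tell the forms apart, and the quantification divides them among the transcripts.

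**Figure D1:**
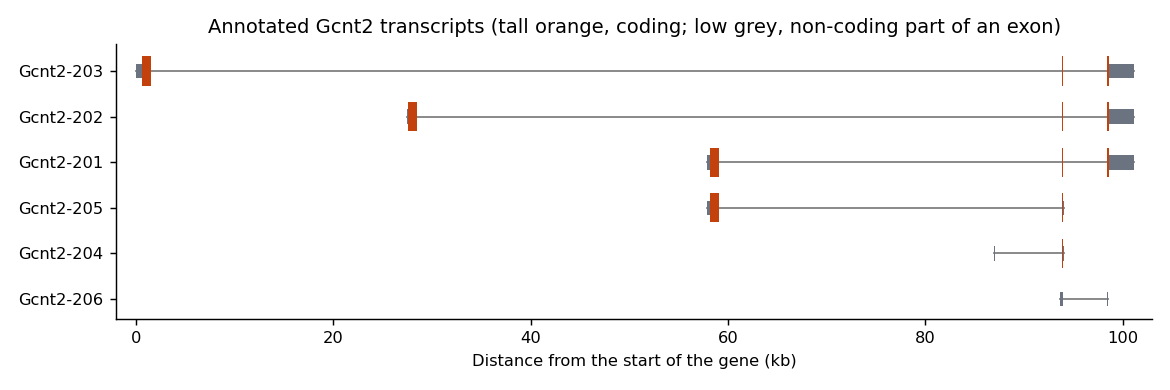
Exons of the 6 annotated Gcnt2 transcripts by distance from the start of the gene in kb (tall orange blocks, coding; low grey blocks, non-coding). Gcnt2-203, Gcnt2-202 and Gcnt2-201 each have their own first coding exon and share the coding parts of exons 2 and 3 at the far end.

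The 250 bases before each of the 3 RefSeq start sites of Gcnt2 (GRCm38.p6) are printed because the 3 forms differed in their transcript estimates, as described next. Of the 3, only Gcnt2-202 had all cKO libraries above all controls in both lines. Capitals mark GTCT or AGAC, the short SMAD-binding element on either strand, and TGACG or CGTCA, the core of the cAMP response element on either strand.
Gcnt2 promoter 1, 14 bases from the Gcnt2-203 start (chr13:40859518-40859767, plus strand): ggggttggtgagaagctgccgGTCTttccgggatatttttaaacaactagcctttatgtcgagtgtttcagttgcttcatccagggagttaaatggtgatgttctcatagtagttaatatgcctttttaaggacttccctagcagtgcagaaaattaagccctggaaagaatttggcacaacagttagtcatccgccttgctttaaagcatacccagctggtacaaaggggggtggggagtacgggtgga
Gcnt2 promoter 2, 435 bases before the Gcnt2-202 start (chr13:40886508-40886757, plus strand): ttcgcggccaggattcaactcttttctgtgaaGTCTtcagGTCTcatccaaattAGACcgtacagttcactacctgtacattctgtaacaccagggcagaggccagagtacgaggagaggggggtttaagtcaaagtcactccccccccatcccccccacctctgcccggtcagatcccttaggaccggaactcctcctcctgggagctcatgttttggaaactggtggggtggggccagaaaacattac
Gcnt2 promoter 3, 33 bases from the Gcnt2-201 start (chr13:40917384-40917633, plus strand): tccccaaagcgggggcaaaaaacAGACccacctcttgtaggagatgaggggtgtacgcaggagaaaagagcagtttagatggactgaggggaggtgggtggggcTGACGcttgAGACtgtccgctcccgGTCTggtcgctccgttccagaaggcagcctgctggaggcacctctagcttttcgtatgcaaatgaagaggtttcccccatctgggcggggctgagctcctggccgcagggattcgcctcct
The GC content of these windows was 45.6%, 54% and 59.6%. GTCT or its reverse complement was found 1, 3 and 3 times, and 82.9% of 32851 RefSeq promoters of the same length hold at least 1. TGACG or CGTCA was found once, in promoter 3, and is in 17.8% of promoters. GGCGCC (in 9.59% of promoters), GCCNNNGGC, the AP-2 site (in 13.7%), and TATAAA or TTTATA (in 12.4%) were not found in the 3 windows, which says only that these letters are absent there. None of the marked matches overlapped another.

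Gcnt2 was at 68.4, 62 and 53.6 CPM in the AP-2εCre flox libraries, at 59.2, 66.4 and 60.9 CPM in the heterozygotes and at 71.9, 81.5 and 82.6 CPM in the cKO. All 3 cKO libraries were above all 6 controls. The means were 78.6 ± 5.9 CPM in cKO (SD, n = 3) and 61.7 ± 5.25 CPM in controls (SD, n = 6), a fitted difference of 0.35 on the log2 scale (SE 0.09), or 1.27-fold.

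In the OMPCre line Gcnt2 was at 60.6, 60.6 and 63 CPM in flox, at 68.2, 65.9 and 60.9 CPM in heterozygotes and at 91.9, 85.2 and 87.6 CPM in cKO. The gap between the lowest cKO library and the highest control was wider here than in the AP-2εCre line. The means were 88.2 ± 3.42 CPM (SD, n = 3) and 63.2 ± 3.2 CPM (SD, n = 6), a fitted difference of 0.48 on the log2 scale (SE 0.06), or 1.4-fold. The AP-2εCre difference was smaller than the OMPCre difference by 0.14 on the log2 scale (SE 0.11), also given without a test.

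Gcnt2 was thus the gene of the 4 with all cKO libraries above all controls in both lines, which is the pattern it was chosen for. For reading it, 2.38% of the 18495 genes with a test in that of AP-2εCre had all cKO above all controls, as did 1.35% of 18623 in the OMPCre line and 0.193% of the 18137 tested in both. Within the libraries named by a letter and a number the log2 ratio of the means was 0.36 in the AP-2εCre line and 0.47 in the OMPCre line, and within those named by line and number, with 1 cKO and 2 controls per line, it was 0.33 and 0.5. These are the values Gcnt2 was chosen on, split by name, with a single cKO library per line in the latter series, and they add no independent support.

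Of 11 marker lists, those for neurons, their progenitors, sustentacular cells, glands and immune cells are given as summed levels. The 6 mature VSN markers summed to 1380 to 1540 CPM in AP-2εCre cKO and 1000 to 1350 CPM in controls, with no overlap. The 5 progenitor markers summed to 172 to 201 CPM against 95.4 to 181 CPM, the 5 immature neuron markers to 636 to 915 CPM against 524 to 738 CPM, and the 5 sustentacular cell markers to 1180 to 1670 CPM against 1500 to 3450 CPM. The 6 gland and respiratory epithelium markers summed to 5500 to 7790 CPM against 6770 to 11100 CPM, with 0 of 6 higher in AP-2εCre cKO (median log2 fold change -0.45), and the 6 immune cell markers to 401 to 1020 CPM against 436 to 739 CPM, with 6 of 6 higher (median 0.28). None of the markers on these lists was at 0. In the OMPCre line the mature VSN sum of 1210 to 1220 CPM in cKO lay inside the 1090 to 1400 CPM of the controls, but above the 1090 to 1200 CPM of the heterozygotes, which share the Omp allele that carries Cre. Without Omp, the other 5 markers summed to 927 to 983 CPM in OMPCre cKO and 811 to 947 CPM in controls, and to 926 to 985 CPM against 711 to 954 CPM in the AP-2εCre line, overlapping in both. The immature neuron markers summed to 700 to 811 CPM in OMPCre cKO against 620 to 741 CPM, the progenitor markers to 77.4 to 115 CPM against 109 to 169 CPM, the sustentacular markers to 1260 to 2110 CPM against 1060 to 2210 CPM, the gland markers to 6490 to 7740 CPM against 5620 to 9170 CPM, and the immune markers to 314 to 454 CPM against 305 to 501 CPM. The summed levels of the other 5 lists (ensheathing glia, endothelium, red blood cells, main olfactory neurons, and cartilage, bone and muscle) overlapped between cKO and controls in both lines. The part of cell composition in the Gcnt2 difference was not tested in either line.

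**Figure D2:**
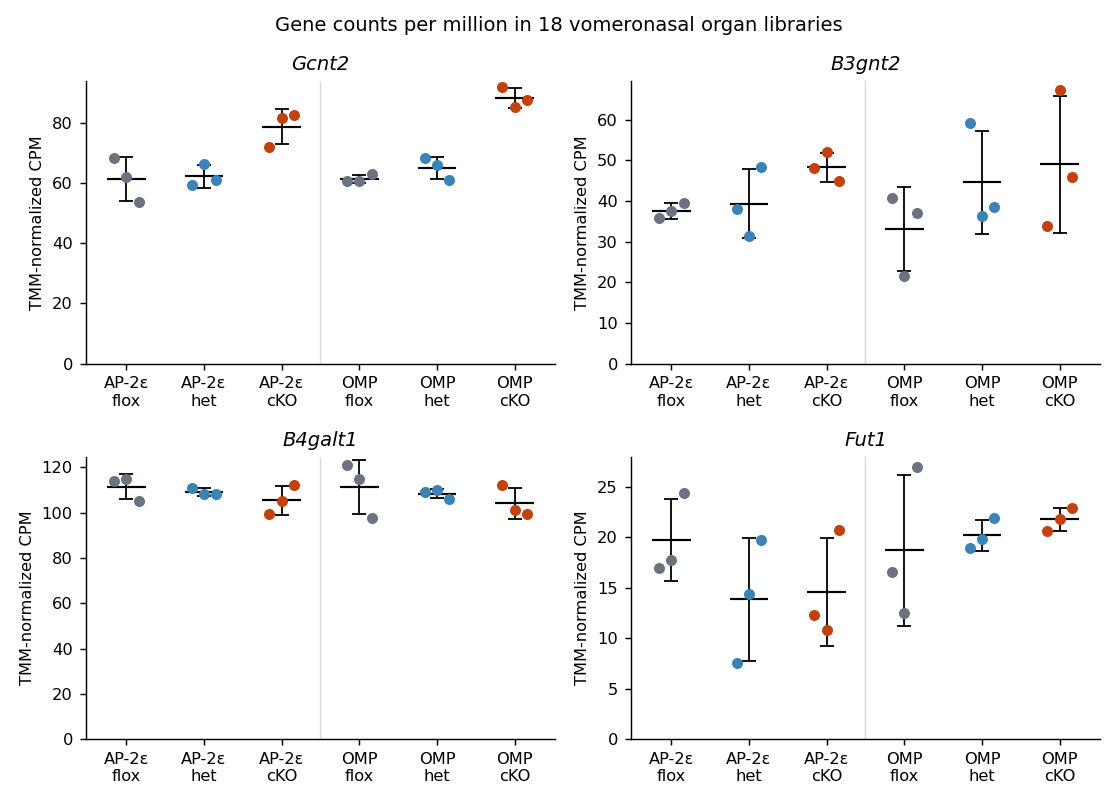
TMM-normalized CPM of Gcnt2, B3gnt2, B4galt1 and Fut1 in the 18 libraries by line and genotype (points, libraries; bars, mean and SD of 3). The cKO points of Gcnt2 sit above all control points in both lines, at 71.9 to 82.6 and 85.2 to 91.9 CPM, and those of the other 3 genes overlap their controls.

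Heterozygotes and flox were not contrasted in the choice of Gcnt2, but they are the controls it was chosen against, and that choice favours a gene whose controls lie close together. The heterozygotes differed from flox by a log2 fold change of 0.02 (SE 0.11, edgeR adjusted p = 1) in the AP-2εCre line and 0.07 (SE 0.07, edgeR adjusted p = 0.95) in the OMPCre line. The controls of the 2 lines differed by -0.03 (SE 0.06, edgeR adjusted p = 0.958), AP-2εCre minus OMPCre. Over all 12 controls Gcnt2 stayed between 53.6 and 68.4 CPM.

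The cKO difference of Gcnt2 was carried by the transcript Gcnt2-202. Its level was 46.2, 41.6 and 37.9 CPM in AP-2εCre flox, 37.1, 48 and 41.5 CPM in heterozygotes and 60.4, 59.8 and 65 CPM in cKO. In the OMPCre line it was 38.4, 40.9 and 47.8 CPM in flox, 51.4, 46.3 and 45 CPM in heterozygotes and 68.5, 67.1 and 74.2 CPM in cKO. The cKO libraries were above all controls of their line, by log2 fold changes of 0.55 (SE 0.1) and 0.63 (SE 0.1), larger than those of the gene as a whole. The share of all transcripts with this pattern was not determined, so how common it is cannot be read here.

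Gcnt2-201 did not share this pattern. It was at 6.8, 11.5 and 13.3 CPM in AP-2εCre cKO and at 8.78 to 17.4 CPM in the controls, with a median of 15 CPM. Its OMPCre levels were 15.9, 13.1 and 6.52 CPM in cKO and 9.75 to 16.1 CPM in controls, with a median of 13.3 CPM. The groups overlapped in both lines, with log2 fold changes of -0.44 (SE 0.27) and -0.12 (SE 0.28).

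Gcnt2-203, the lowest of the 3 forms by group mean, was at 4.64, 10 and 4.14 CPM in AP-2εCre cKO against 4.72 to 5.63 CPM in controls, and at 7.51, 5.04 and 6.9 CPM in OMPCre cKO against 2.98 to 6.79 CPM in controls. A single library, AP-2εCre cKO 2, gave the high value of the first group. The log2 fold changes of Gcnt2-203 were 0.29 (SE 0.29) and 0.33 (SE 0.29).

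As a share of the gene's counts, Gcnt2-202 made up 68.1% ± 3.35 (SD, n = 6) in AP-2εCre controls and 78.7% ± 5.32 (SD, n = 3) in cKO, and 71% ± 4.96 (SD, n = 6) and 79.3% ± 5.11 (SD, n = 3) in the OMPCre line. Gcnt2-201 made up 23.1% ± 4.53 of the counts in AP-2εCre controls and 13.2% ± 3.42 in cKO, and 20.5% ± 3.9 and 13.4% ± 5.21 in the OMPCre line. The cKO and control shares of Gcnt2-202 did not overlap in the AP-2εCre line (73.4% to 84.1% against 62.6% to 72.3%) and overlapped in the OMPCre line (74.5% to 84.7% against 63.4% to 76%). Because these shares come from the same contrast as the choice of the gene, they are descriptions.

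The short transcripts of Gcnt2 held few counts. Gcnt2-206, a retained-intron transcript of 334 bases, was at 0 in all of the 18 libraries but 3, and had at most 1.23% of the gene's counts. Divided by its length, this came to 7.23 of the 21.1 TPM of Gcnt2 in AP-2εCre flox 3 and to 6.13 of 25 TPM in OMPCre flox 3, the highest Gcnt2 TPM values among the controls of each line. Gcnt2-204, of 335 bases, had at most 0.523% of the counts, in OMPCre heterozygote 3, where it gave 3.99 of 21.5 TPM. In TPM the Gcnt2 groups overlapped in both lines, with 10 to 25 TPM in controls and 17.2 to 23.5 TPM in cKO. The annotation also places the antisense genes Gm31683 and A730081D07Rik over parts of Gcnt2. They were not analysed here, and whether the counting used the strand of the reads is not given in the sources used here.

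**Figure D3:**
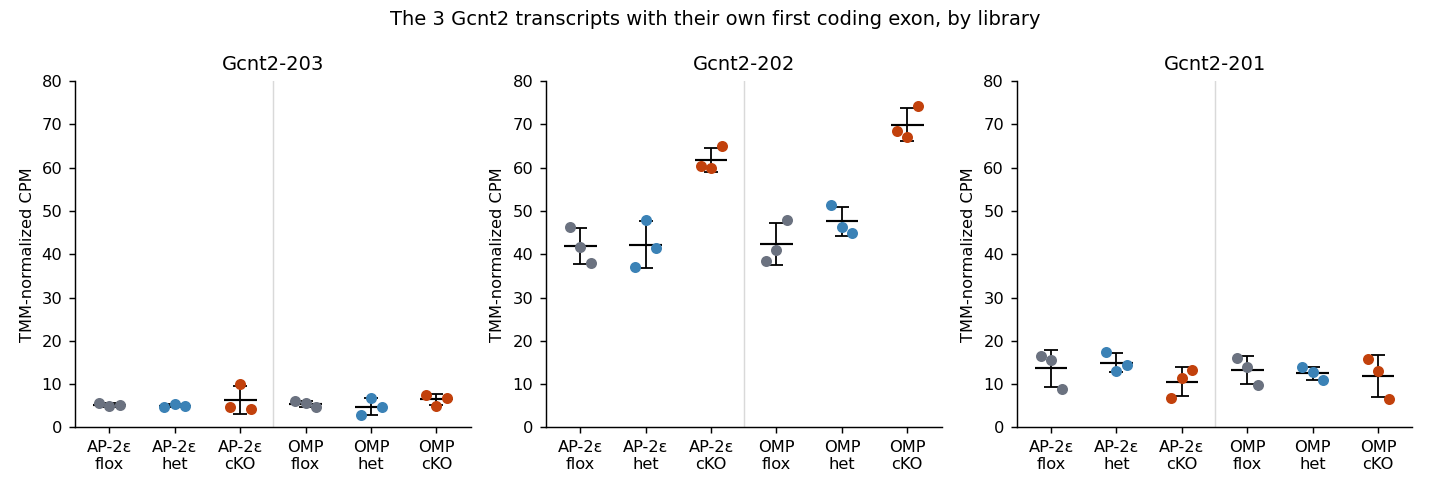
TMM-normalized CPM of Gcnt2-203, Gcnt2-202 and Gcnt2-201 in the 18 libraries on a common axis (points, libraries; bars, mean and SD of 3). Gcnt2-202 holds most of the counts, and its cKO points lie at 59.8 to 65 and 67.1 to 74.2 CPM, above all controls of their line.

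B3gnt2 (ENSMUSG00000051650.11; chr11:22759738-22860961, minus strand), the chain-extending enzyme, did not pass the test in either line. In the AP-2εCre line it was at 35.7, 37.5 and 39.5 CPM in flox, at 38.1, 31.5 and 48.4 CPM in heterozygotes and at 48, 52 and 44.8 CPM in cKO. The cKO libraries lay at the upper end of the range, and the third heterozygote lay among them. The log2 fold change was 0.33 (SE 0.12), with an unadjusted p of 0.0223 and an adjusted p of 0.403 by edgeR, and a two-sided exact permutation test of the CPM values over 84 arrangements gave p = 0.06. Leaving out single libraries gave edgeR log2 fold changes of 0.27 to 0.4 with adjusted p of 0.338 to 0.734. Without AP-2εCre heterozygote 3, the overlapping control, the exact permutation p was 0.018, the smallest that 3 against 5 libraries allow, and the edgeR adjusted p was 0.338. Taking out the only overlapping control fixes that permutation p in advance, so it adds no support. The other 8 removals gave exact permutation p of 0.071 to 0.14.

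B3gnt2 in the OMPCre line was at 40.8, 21.5 and 37.1 CPM in flox, at 59.2, 36.2 and 38.5 CPM in heterozygotes and at 33.9, 67.2 and 45.9 CPM in cKO. The lowest of the 3 cKO libraries was below most controls and the highest above all of them. The log2 fold change was 0.33, as in the other line, but its SE was 0.28 and the edgeR adjusted p was 1 (two-sided exact permutation p = 0.31). Without OMPCre cKO 2 the log2 fold change was 0.04, and without OMPCre cKO 1 it was 0.54.

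In TPM the AP-2εCre difference in B3gnt2 was larger. It was at 49.7, 41.2 and 46.6 TPM in cKO and at 24.4 to 33.9 TPM in controls, a log2 ratio of the means of 0.67 with an exact permutation p of 0.012, the smallest that 84 arrangements allow. TPM was not scaled between libraries beyond its sum, and the median of all tested genes was itself 0.28 higher in the AP-2εCre cKO on this scale, against 0.01 in CPM. Most of the TPM came from B3gnt2-203, a transcript of 635 bases, which held 24.9% ± 4.68 (SD, n = 6) of the gene's counts in AP-2εCre controls. B3gnt2-203 was at 11.2, 12.9 and 14.9 CPM in cKO and at 7.45 to 11.3 CPM in controls, with a log2 fold change of 0.46 (SE 0.18, edgeR adjusted p = 1).

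B4galt1 (ENSMUSG00000028413.13; chr4:40804602-40854005, minus strand), the galactose-adding enzyme, did not pass the test in either line. It was at 99.2, 105 and 112 CPM in AP-2εCre cKO against 105 to 115 CPM in controls, and at 112, 101 and 99.2 CPM in OMPCre cKO against 97.8 to 121 CPM in controls. The groups overlapped in both lines. The log2 fold changes were -0.07 (SE 0.07, edgeR adjusted p = 0.816; exact permutation p = 0.19) and -0.07 (SE 0.08, edgeR adjusted p = 1; exact permutation p = 0.32). In TPM the AP-2εCre ratio had the opposite sign, at 0.21 on the log2 scale, below the 0.28 shift of all genes.

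Fut1 (ENSMUSG00000008461.6; chr7:45617289-45621059, plus strand), the fucose-capping enzyme, did not pass the test either. It was at 12.3, 10.8 and 20.7 CPM in AP-2εCre cKO against 7.55 to 24.4 CPM in controls, and at 20.6, 21.8 and 22.9 CPM in OMPCre cKO against 12.5 to 27 CPM in controls. The cKO values lay inside the control range in both lines. The log2 fold changes were -0.21 (SE 0.32, edgeR adjusted p = 0.89; exact permutation p = 0.58) and 0.17 (SE 0.2, edgeR adjusted p = 1; exact permutation p = 0.46). The direction in the AP-2εCre line turned to 0.07 against heterozygotes alone, and to 0.15 in TPM, under the shift of all genes.

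Of the 3 genes tested in the cKO comparisons, edgeR called 0 in the AP-2εCre line, where 0.0378% of all genes were called, and 0 in the OMPCre line, where 0% were. At an unadjusted p under 0.05 the counts were 1 of 3 in the AP-2εCre line, against 10.2% of all genes, and 0 of 3 in the OMPCre line, against 3.95%. DESeq2 also called 0 of 3 in each, against 1.53% and 0.218% of all genes. The difference of the cKO effects between lines was called for 0 of 3, against 0.00514% of genes (0 at an unadjusted p under 0.05, against 5.05%, and 0 by DESeq2, against 0.236%).

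Among the 4 genes, of which Gcnt2 was chosen against these same controls, edgeR called 0 between heterozygotes and flox in both lines. Of all genes, 0.0487% and 0.0752% were called. At an unadjusted p under 0.05 the counts were 0 (5.47% and 5.84% of all genes), and DESeq2 called 0 (0.632% and 0.749%). The largest of these differences were a Fut1 log2 fold change of -0.51 (SE 0.35) in the AP-2εCre line and a B3gnt2 log2 fold change of 0.42 (SE 0.32) in the OMPCre line. Single libraries moved both: the Fut1 value was -0.22 without heterozygote 1 and -0.85 without heterozygote 3, and the B3gnt2 value was 0.16 without heterozygote 1 and 0.19 without flox 2. Between the controls of the 2 lines 0 of 4 were called, against 0.2% of genes, with 0 at an unadjusted p under 0.05 (7.44%) and 0 by DESeq2 (0.92%). Of the 8 transcripts of B3gnt2, B4galt1 and Fut1 tested in each line, edgeR called 0, against 0% of transcripts in the AP-2εCre line and 0.00337% in the OMPCre line. The unadjusted counts were 1 (4.84% of transcripts) and 0 (2.53%), and DESeq2 called 0 (1.47% and 1.21%).

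**Figure D4:**
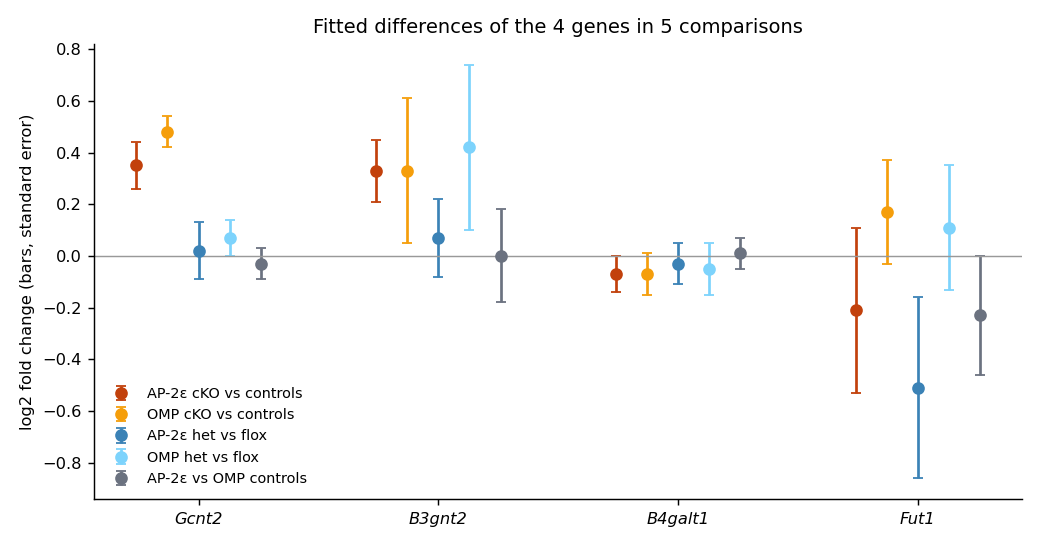
Fitted log2 fold changes with standard errors for Gcnt2, B3gnt2, B4galt1 and Fut1 in 5 comparisons. Gcnt2 lies at 0.35 and 0.48 in the cKO comparisons, for which it was chosen. It lies between -0.03 and 0.07 in the other 3, which compare the controls it was chosen against. The bars of B3gnt2 and Fut1 are wider than those of Gcnt2 and B4galt1.

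Per length, the 4 genes ranked B3gnt2, B4galt1, Gcnt2 and Fut1 in the 6 flox libraries, at means of 28 ± 6.95, 23.7 ± 2.69, 16 ± 5.79 and 8 ± 3.71 TPM (SD, n = 6). B3gnt2 and B4galt1 did not differ beyond their spread (B3gnt2 higher in 5 of 6 libraries, two-sided exact sign-flip permutation p = 0.16, adjusted p = 0.16 over the 3 neighbouring pairs). B4galt1 was above Gcnt2 in 6 of 6 libraries and Gcnt2 above Fut1 in 6 of 6 (exact permutation p = 0.031 and adjusted p = 0.047 for each, the former the smallest that 6 libraries allow). Over the 12 controls B3gnt2 was above B4galt1 in 11 of 12 (exact permutation p = 0.0039). The first rank of B3gnt2 rests on its short transcript: in CPM, which does not divide by length, it was below B4galt1 by 1.68 on the log2 scale.

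In a wider set of 78 genes in 8 lists of lactosamine synthesis, capping, binding and supply, and of neuronal cAMP signaling, edgeR called 0 of the 76 tested besides Gcnt2 in each cKO comparison (0.0378% and 0% of all genes). At an unadjusted p under 0.05 there were 16 of 76 in the AP-2εCre line, where 10.2% of all genes were, and 2 of 76 in the OMPCre line, where 3.95% were. DESeq2 called 1 in the first, Gcnt3, and 0 in the second, against 1.53% and 0.218% of all genes. The median log2 fold change over the 76 genes was -0.05 and -0.02, against 0 for all genes in both lines.

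Of the 14 chain enzymes, 9 had positive log2 fold changes in the AP-2εCre line and 10 in the OMPCre line, with medians of 0.02 and 0.05 and 0 called in each. B4galt5, a galactosyltransferase with the highest TPM of this list in flox mice, had values of 0.01 (SE 0.13) and 0.12 (SE 0.09). The 11 branching enzymes besides Gcnt2 had medians of 0.03 and 0.02, with 0 called by edgeR and 1, Gcnt3 in the AP-2εCre line, by DESeq2. Mgat1, Mgat4a and Mgat4b, which start and branch N-glycan antennae, had the highest TPM of them in flox, and Mgat4a had the largest AP-2εCre difference of these, -0.59 (SE 0.19, edgeR adjusted p = 0.356), at 118 to 180 CPM in cKO and 154 to 278 CPM in controls. Its OMPCre value was 0.2 (SE 0.17).

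Of the other Gcnt genes, Gcnt3, which makes core and I branches in mucin-type glycans, was at 15.8 to 18.1 CPM in AP-2εCre cKO and at 16.7 to 30 CPM in controls, with a fitted value of -0.63 (SE 0.17, edgeR adjusted p = 0.316; DESeq2 adjusted p = 0.0297). In the OMPCre line it was at 20.8 to 33.4 CPM against 19.9 to 31.1 CPM, a log2 fold change of -0.01 (SE 0.17). The gland and respiratory epithelium markers, of which 0 of 6 were higher in the AP-2εCre cKO (median -0.45) and 2 of 6 in the OMPCre cKO (median -0.04), lay on the same side as Gcnt3, and their part in it was not tested. Gcnt1, a core-branching enzyme, had values of -0.18 (SE 0.12) and 0.19 (SE 0.08, edgeR adjusted p = 1), and Gcnt4 of 0.63 (SE 0.24, edgeR adjusted p = 0.407) and 0.37 (SE 0.44). Gcnt1, Gcnt3 and Gcnt4 are named here after their values were seen.

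Of the 14 genes of fucosylation, 11 were on the negative side in the AP-2εCre line, with a median of -0.16, and 8 of the 13 tested in the OMPCre line, with a median of -0.02, and 0 were called. Gmds, which makes GDP-fucose, was at -0.27 (SE 0.11, edgeR adjusted p = 0.445) and -0.21 (SE 0.11, edgeR adjusted p = 1). Its cKO levels, 42.7 to 52.9 and 45.5 to 50.1 CPM, overlapped those of heterozygotes, 47.5 to 52.6 and 47.2 to 53.2 CPM. Flox was higher, at 58.1 to 64.1 and 58.5 to 67.1 CPM. Fut8, the core fucosyltransferase, was at -0.03 (SE 0.09) and 0.03 (SE 0.07), and Tsta3, of the same supply route as Gmds, at -0.17 (SE 0.1) and -0.09 (SE 0.15).

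Among sialyltransferases the medians were 0.03 and -0.06 with 0 called of 7 and 8 tested. St3gal4 was at -0.46 (SE 0.28) and -0.5 (SE 0.26), St3gal6 at -0.16 (SE 0.16) and -0.06 (SE 0.17), and St6gal1 at 0.31 (SE 0.11, edgeR adjusted p = 0.372) and -0.03 (SE 0.11). The 9 genes for other caps had medians of 0.04 and -0.06 with 0 called. Ggta1, which adds an α-galactose cap, was at -0.28 (SE 0.12, edgeR adjusted p = 0.447) and -0.27 (SE 0.15, edgeR adjusted p = 1), while B4galnt2 and B4galnt3 lay between -0.19 and -0.03.

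Galectins, which bind lactosamine, had medians of -0.09 and -0.14 with 0 of 9 called. Lgals1 was at 0.45 (SE 0.26, edgeR adjusted p = 0.611) and -0.01 (SE 0.3), and Lgals3 at -0.67 (SE 0.36, edgeR adjusted p = 0.569) and -0.66 (SE 0.4, edgeR adjusted p = 1). For Lgals3, heterozygotes against flox had opposite signs, 0.85 (SE 0.32) in the AP-2εCre line and -0.7 (SE 0.42) in the OMPCre line. Its AP-2εCre cKO, at 15.2 to 32.4 CPM, overlapped flox (24.1 to 30.7 CPM). Its OMPCre cKO, at 12.9 to 39.3 CPM, overlapped heterozygotes (19.8 to 40.1 CPM). Lgals7 reached 118 CPM in a single OMPCre flox library and 6.97 CPM at most in the cKO of that line, so its log2 fold change of -2.94 (SE 2.15) rests on that library. The 8 genes of UDP-sugar supply had medians of -0.17 and -0.01, with 7 on the negative side in the AP-2εCre line and 0 called. Uap1, which makes UDP-N-acetylglucosamine, was at 54.3 to 58.1 CPM in AP-2εCre cKO, below the 61.1 to 76.8 CPM of controls (log2 fold change -0.27, SE 0.09, edgeR adjusted p = 0.344), and at 0.01 (SE 0.08) in the OMPCre line. The share of all genes with all cKO libraries below all controls was not determined, so this separation is no result about the list. Gfpt1 was at -0.22 (SE 0.14) and 0 (SE 0.1), and Ugp2 at -0.19 (SE 0.11) and 0.04 (SE 0.08).

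Besides Gcnt2, 2 of the list genes, Mgat5b and St3gal3, had all AP-2εCre cKO libraries above all controls. These 2 of 76 are near the share of all genes with that pattern, 2.38%, and are no result about the lists. Mgat5b, a branching enzyme of neural O-mannosyl glycans, was at 10.2 to 13.6 CPM against 3.91 to 9.09 CPM (edgeR adjusted p = 0.324), and overlapped in the OMPCre line at 8.92 to 10.4 CPM against 5.52 to 12.1 CPM. St3gal3, a sialyltransferase of lactosamine ends, was at 12.2 to 14 CPM against 9.39 to 12.1 CPM (edgeR adjusted p = 0.407). Both were singled out after their values were seen.

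**Figure D5:**
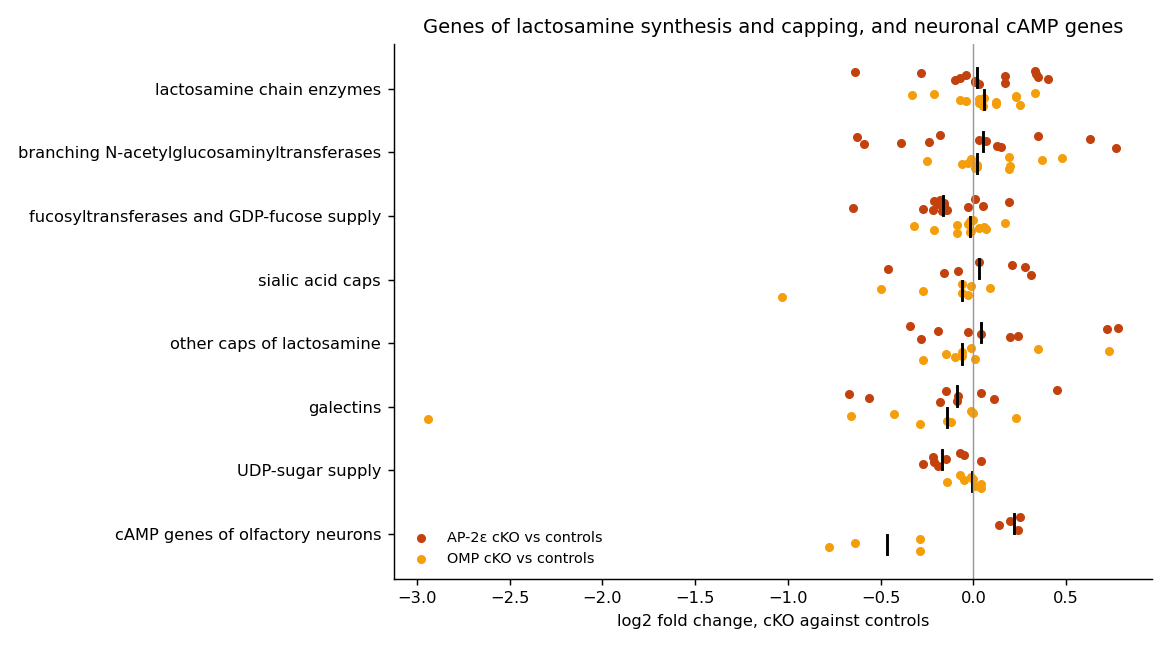
Fitted log2 fold changes of the tested genes of 8 lists in the AP-2εCre (dark orange) and OMPCre (light orange) cKO comparisons (points, genes; black lines, list medians, Gcnt2 included). The medians of the 7 glycan lists lie between -0.17 and 0.05, and the OMPCre values of the cAMP genes lie below 0 against pooled controls that differ from each other, as for Gnal at 89.3 to 104 CPM in heterozygotes and 24.9 to 51.5 CPM in flox.

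The values of the cAMP genes of olfactory neurons depended on which OMPCre controls were used. Adcy3, the adenylyl cyclase of olfactory cilia, was at 75.7 to 78.6 CPM in AP-2εCre cKO and 50.9 to 75.7 CPM in controls (log2 fold change 0.25, SE 0.11, edgeR adjusted p = 0.469), and at 43.6 to 59.5 CPM in OMPCre cKO and 48.4 to 90.8 CPM in controls (-0.29, SE 0.2, edgeR adjusted p = 1). All 4 genes of the list (Adcy3, Gnal, Cnga2 and Omp) had positive values in the first line, with a median of 0.22, and negative values in the second, with a median of -0.47, and 0 were called in either. The difference between lines was not called for any of the 4 by edgeR or DESeq2, and the unadjusted p was under 0.05 for all 4, as for 5.05% of all genes. The OMPCre controls are split here, because Gnal, the olfactory G protein, was at 89.3 to 104 CPM in heterozygotes and 24.9 to 51.5 CPM in flox (edgeR log2 fold change 1.27, SE 0.25, adjusted p = 0.318; DESeq2 adjusted p = 6.01e-05). The OMPCre cKO means were close to flox and below heterozygotes for Adcy3 (50.1, 49.9 and 73.2 CPM in cKO, flox and heterozygotes), Gnal (38.8, 39 and 94.8 CPM) and Cnga2 (12, 11.1 and 26.2 CPM). Omp had the other order, at 259, 397 and 237 CPM, so the negative values against pooled controls do not hold against each kind of control. Between OMPCre heterozygotes and flox, DESeq2 also called Cnga2 (1.23, SE 0.24, adjusted p = 0.000136) and Omp (-0.75, SE 0.16, adjusted p = 0.000924), Omp being the gene that carries the Cre allele. edgeR called neither, with adjusted p of 0.258 for Cnga2 and 0.347 for Omp. The 5 main olfactory neuron markers are Cnga4, Gng13 and the same Adcy3, Gnal and Cnga2, so their sum moves with these genes by construction. It was 224 to 261 CPM in OMPCre heterozygotes, 118 to 154 CPM in OMPCre flox and 120 to 156 CPM in OMPCre cKO. In the AP-2εCre line it was 199 to 249 CPM in cKO against 172 to 237 CPM in controls. The part of main olfactory neurons in the cAMP differences was not tested. Gcnt2 was at 60.9 to 68.2 CPM in OMPCre heterozygotes and 60.6 to 63 CPM in flox. It was chosen against these controls, which favours a gene whose controls lie close together, so the lack of a split is no result.

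Of the 37 annotated genes within 500 kb of Gcnt2, itself included, 20 have transcripts in the data, and 8 were tested in the AP-2εCre line and 9 in the OMPCre line. The flanking gene Pak1ip1, a ribosome assembly factor, had log2 fold changes of -0.04 (SE 0.08) and 0.03 (SE 0.08), and Tfap2a, a relative of Tfap2e on the other flank, of -0.19 (SE 0.21) and -0.47 (SE 0.36). Nedd9, a scaffold protein of integrin signaling, was at 0.41 (SE 0.18, edgeR adjusted p = 0.484) and 0.21 (SE 0.17, edgeR adjusted p = 1). Tmem14c, Mak, Elovl2 and Smim13 lay between -0.32 and 0.16 in both lines, and the pseudogene Gm6245, at a mean of 0.111 CPM, was tested in the OMPCre line alone (-0.76, SE 1.25).

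The genes whose log2(CPM + 1) followed that of Gcnt2 most closely over the 18 libraries, among 15837 with a mean of at least 1 CPM, were Mab21l1 (Pearson r = 0.91), Slc14a2 (0.9), Sez6l (0.88), Mapre2 (0.87) and Unc13c (0.87). Libraries of the same group share their genotype, so these values describe a shared pattern of group levels and carry no p. After the group means were subtracted, the closest genes were Ncam1 (r = 0.88), Minar2 (0.87), Khk (0.86), Sap130 (0.85) and Tm2d3 (0.84), and none of the first 5 were among them. As the highest of 15837 correlations over 18 libraries, these too are descriptions with no p. Of the other lactosamine genes, B3gnt2 had r = 0.39 over the 18 libraries and -0.15 after subtraction, B4galt1 -0.26 and 0.38, and Fut1 0.12 and 0.01.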

How the data were processed

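The authors prepared stranded polyA+ libraries from RNA of dissected VNOs and sequenced single reads of 75 bases. They quantified transcripts with salmon, and per the labels' processing notes used Salmon 0.14.0 and DESeq2 1.22.2 with mm10/GRCm38. The deposited files hold, for each of 116248 transcripts, an estimated count, which need not be whole and is not normalized, and a TPM, scaled to a sum of 1000000 per library. The authors' methods name coding sequences as the reference, but 115995 of 115995 transcripts with the same version have the length of the full GENCODE transcript.

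GENCODE vM21 paired 116072 transcripts with 35596 genes. The other 176, at most 0.0324% of a library's counts, were left out. Estimated counts were summed per gene and rounded. edgeR 4.0.16 (R 4.3.3) was run with TMM, filterByExpr and its quasi-likelihood test, two-sided, with Benjamini-Hochberg adjustment over all genes and a threshold of 0.05. Within each line, the 3 cKO libraries were set against the 6 controls as a single group, and a fit with 3 genotype means set heterozygotes against flox. Line controls and the difference of cKO effects came from a fit of all 18. Transcripts were fitted in the same way, which does not include the uncertainty of dividing shared reads. Single genes were also compared by an exact permutation test on CPM. The difference of level between genes was tested by exact sign flips of the log2 TPM difference within libraries. The labels call replicates biological, with no word on whether each is a single mouse, and p-values measure the spread between these libraries. With 3 cKO libraries, edgeR recovered 63% of 200 genes changed by a log2 of 1 in simulated counts of 18495 genes in the AP-2εCre design. It recovered 63% in the OMPCre design (18623 genes). The changed genes were drawn from those above a floor of expected counts. Smaller changes, such as those of the 4 genes, were not simulated. No pair among 153 pairs of libraries was near-identical.

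The 4 genes and all gene and marker lists were chosen with earlier results of these data known. Named in the text are the 4 genes in every comparison, their transcripts with a mean of at least 0.1 TPM, the 3 genes of highest TPM in flox of each list, genes within 500 kb of Gcnt2, and the 5 most like Gcnt2 in pattern, with exceptions stated. Alternatives were DESeq2 1.42.0, its size factors in edgeR, at least 1 count in total, at least 10 counts in every library, counts from length-scaled TPM, a covariate for the library name series, a block for the replicate number, either control alone, all 18 libraries in 1 fit, robust empirical Bayes, and each library left out. Promoters came from RefSeq (GRCm38.p6). Tables and plots were made with Python 3.11.15, pandas 2.3.3, numpy 2.4.6 and matplotlib 3.10.9.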

Additional observations from a re-analysis of the deposited data

Results flagged for a closer look

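The library with conflicting labels, in no group, had a Gcnt2 level of 70.2 CPM, above the 6 AP-2εCre controls (53.6 to 68.4 CPM) and below the 3 AP-2εCre cKO libraries (71.9 to 82.6 CPM). Its Gcnt2-202 level of 55.9 CPM likewise lay above those controls (37.1 to 48 CPM) and below the cKO (59.8 to 65 CPM), at 79.7% of the gene's counts. B3gnt2 was at 39.6 CPM, B4galt1 at 104 CPM and Fut1 at 9.53 CPM in the same library. This is 1 library whose genotype is not settled by its labels, and no comparison used it. None of the 4 genes had a library far from the rest in the control groups of 6, 8 groups in all, where chance would place about 1 in 20.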

How the results depend on the processing

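The Gcnt2 log2 fold change in the cKO, described without a test, stayed between 0.28 and 0.35 under the other settings in the AP-2εCre line and between 0.33 and 0.52 in the OMPCre line, the lowest in each with counts from length-scaled TPM, where the short transcripts weigh more. With each library left out in turn it was 0.31 to 0.41 and 0.45 to 0.51. The number of genes called over the whole table depended on the setting. For the AP-2εCre cKO it was 7, against 314 by DESeq2, 2 with length-scaled TPM, 2 with the series of library names as covariate, 2 with the replicate block, 24 with flox controls only, 16 with all 18 libraries in 1 fit and 2 to 8 with each library left out. For the OMPCre cKO it was 0, against 44 by DESeq2, 2 with at least 10 counts in every library, 1 with the series of library names, 11 with heterozygous controls only, 15 with all 18 libraries in 1 fit, 2 with robust empirical Bayes, 0 with the replicate block and 0 to 2 with each library left out. For AP-2εCre heterozygotes it was 9, against 127 by DESeq2, 14 with at least 1 count in total, 4 with length-scaled TPM, 5 with the series of library names, 3 with the replicate block and 3 to 21 with each library left out. For OMPCre heterozygotes it was 14, against 156 by DESeq2, 4 with at least 10 counts in every library, 7 with the replicate block and 6 to 19 with each library left out. For the line controls it was 39, against 198 by DESeq2, 21 with at least 10 counts in every library, 7 with the replicate block and 22 to 53 with each library left out. For the difference of the cKO effects it was 1, against 52 by DESeq2, 2 each with at least 1 count in total, at least 10 counts in every library and the series of library names, 0 with the replicate block and 0 to 5 with each library left out. DESeq2 called 987 and 779 transcripts in the 2 cKO comparisons. The causes of these differences were not tested. The sign of some fitted values for the 4 genes reversed. Fut1 in the AP-2εCre cKO was 0.07 against heterozygous controls only. With length-scaled TPM, Gcnt2 was -0.15 and -0.09 in AP-2εCre and OMPCre heterozygotes, B4galt1 0.01 in AP-2εCre heterozygotes, B3gnt2 -0.1 between line controls, and the differences of the cKO effects were 0.2 for B3gnt2 and -0.01 for B4galt1. Between line controls B3gnt2 was -0 by DESeq2, with DESeq2 size factors, with at least 10 counts in every library and with the series of library names, and the replicate block gave -0.15 for B3gnt2 and -0.07 for B4galt1. With each library left out, Gcnt2 was -0.07 to 0.1 and B3gnt2 -0.11 to 0.2 in AP-2εCre heterozygotes, B4galt1 -0.13 to 0.02 and Fut1 -0.12 to 0.48 in OMPCre heterozygotes, Gcnt2 -0.07 to 0.01, B3gnt2 -0.11 to 0.13 and B4galt1 -0.04 to 0.04 between line controls, and the differences of the cKO effects were -0.24 to 0.26 for B3gnt2 and -0.04 to 0.06 for B4galt1. In TPM the AP-2εCre log2 ratios were 0.67 for B3gnt2, 0.21 for B4galt1 and 0.15 for Fut1, and that of B3gnt2 in CPM was 0.27 to 0.4 with each library left out. Without 1 library the fitted B3gnt2 value was 0.04 to 0.54 in the OMPCre cKO and 0.16 to 0.61 in OMPCre heterozygotes, and that of Fut1 was -0.55 to -0.03 and 0.07 to 0.28 in the AP-2εCre and OMPCre cKO and -0.85 to -0.22 in AP-2εCre heterozygotes. The B3gnt2 to B4galt1 difference in flox was -1.68 in CPM and 0.33 over the 12 controls, and with each library left out B4galt1 was 0.55 to 0.73 above Gcnt2 and Gcnt2 0.9 to 1.14 above Fut1, where 5 libraries cannot give a p under 0.062. By TPM, Gcnt2-202 was 60.7% of the gene in AP-2εCre flox, 59% in OMPCre flox and 69.6% in OMPCre heterozygotes. Deviations of same-numbered libraries had a mean correlation of -0.082 in the AP-2εCre line, against 0.0418 for different numbers, and 1 of 9 libraries correlated best with its own number. In the OMPCre line it was 0.226 (lowest pair 0.018) against -0.11, and 7 of 9 libraries correlated best with their own number. All same-numbered OMPCre pairs also share the series of library names, and many different-numbered pairs do not, so number and series are mixed here. This is at most a hint of pairing, which the labels do not give, so no paired fit was taken as the main one. Depth and 3 libraries per group limit which differences in Fut1 and the low list genes could be detected.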
